A study of Mus musculus with 18 samples.

Results

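Mouse acute myeloid leukemia (AML) cells that had been given doxycycline (Dox) were compared directly with the same kind of cells given a mix of reprogramming compounds, on 3 arrays per treatment. These 6 arrays, of 18 in the series, were chosen by their titles, and only they entered a test. Per the labels, the cells were GFP-positive leukemia cells carrying MLL-AF9, sorted by flow cytometry from bone marrow, and the mice are called 4F mice, which carry Dox-inducible Oct4 (the product of Pou5f1), Sox2, Klf4 and c-Myc. Both treatments lasted 24 h in vitro. The compound mix, named VC6T in the labels, held VPA, CHIR, 616452 and TCP. Neither its doses nor the dose of Dox is known here. All 6 arrays come from the MLL-AF9 leukemia, so the comparison sets 2 treatments of one leukemia model against each other. Dox itself and the induced factors cannot be told apart here, because every array with Dox comes from the 4F cells. The 3 arrays of untreated AML cells (AML control) entered no fit and are given only as a level to read beside the others. No time in culture is given for them, so they may not match the 24 h of the treated cells. The part of culture in any gap to the untreated level was not tested. Arrays of a group are labelled biological repeats, with no word on separate animals or cultures. The p-values therefore set the difference between treatments only against the spread among arrays within these groups, and part of that spread may be technical.

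MLL-AF9 is a fusion of a histone methyltransferase with a transcription elongation partner. It holds progenitor genes such as the Hoxa cluster active and blocks myeloid maturation. Oct4, Sox2, Klf4 and c-Myc are the transcription factors that return somatic cells to pluripotency. The compounds act on other parts of the cell: VPA (valproic acid) inhibits histone deacetylases, CHIR inhibits the kinase GSK3 and so stabilises beta-catenin, 616452 inhibits the TGF-beta type I receptor, and TCP (tranylcypromine) inhibits the histone demethylase LSD1 and the monoamine oxidases. Inhibition of LSD1 is known to release myeloid genes repressed by Gfi1 in MLL-rearranged leukemia cells.

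The 2 treatments left the leukemia cells in widely different states. Cells with compound had far more transcript of monocyte and macrophage genes, chemokines, inhibitory myeloid receptors and the growth factor receptor Kit. Cells with Dox had more Klf4, Hoxa genes, many interferon-response genes and the surface genes Cd200 and Vcam1, and less transcript of DNA replication, DNA repair and ribosome biogenesis genes. Values are log2 expression from the array, and every difference is the mean with Dox minus the mean with compound, so a positive value means higher with Dox. limma called 7290 of 14791 genes at an adjusted p under 0.05, which is 49.3% of those tested. Of these, 3519 (23.8%) were higher with Dox and 3771 (25.5%) higher with compound. At least 2-fold differences were called for 2858 genes (19.3%), 1387 of them (9.38%) higher with Dox and 1471 (9.95%) with compound. In 8373 genes (56.6%) the 3 arrays of one treatment lay beyond all 3 of the other, 4059 (27.4%) higher with Dox and 4314 (29.2%) with compound. The median difference of all genes tested was -0.01 and the range -7.88 to 8.49. Counts of gene list members below are to be read against these shares.

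**Figure D1:**
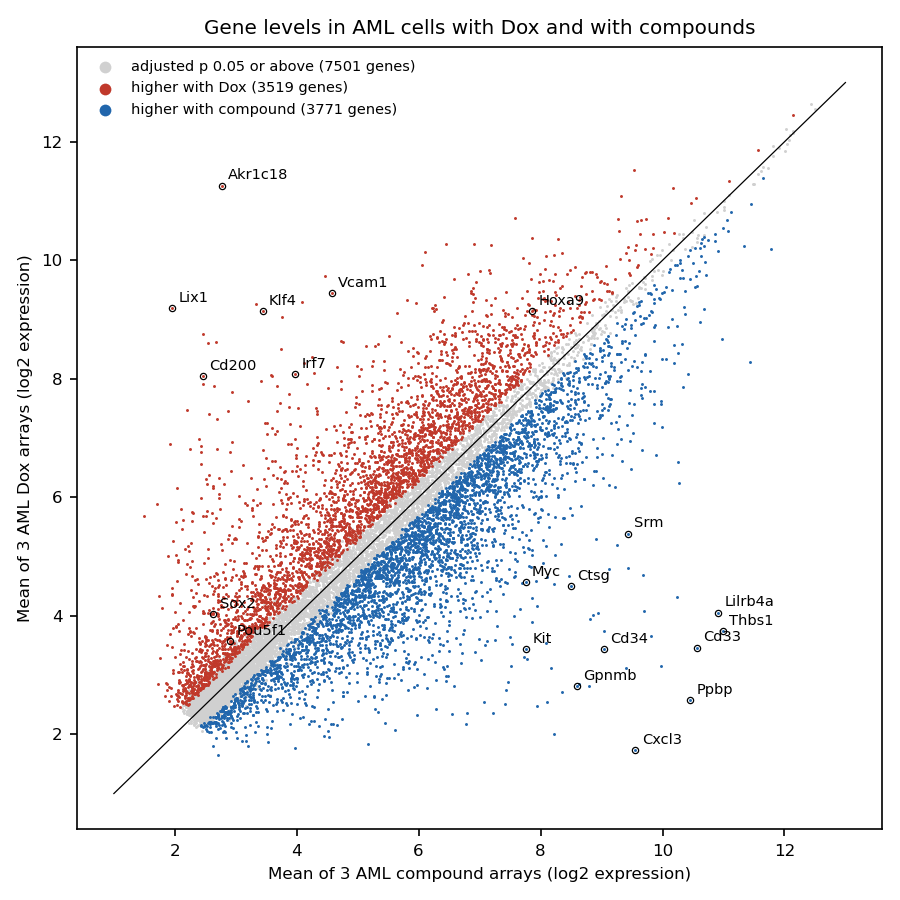
Mean log2 expression of each of 14791 tested genes on the 3 AML compound arrays (horizontal axis) and the 3 AML Dox arrays (vertical axis), with the line of equal levels. Red points are the 3519 genes higher with Dox, blue points the 3771 higher with compound and grey points the rest. Akr1c18 stands highest above the line, and Ppbp and Cxcl3 lie farthest below it.

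Arrays of one treatment correlated at r = 0.9864 to 0.9886 (Dox) and 0.9791 to 0.987 (compound) across all probe sets, and arrays of different treatments at 0.9253 to 0.9349. The probe set medians were 2.75 on each Dox array and 2.65 to 2.73 on the compound arrays. The median SD over genes was 0.12 among the Dox arrays and 0.15 among the compound arrays. Among the other arrays, compound replicate 1 of the normal LSK progenitors stood apart from its group (lowest r 0.638), and it entered only the choice of probe sets; choosing them on the 6 arrays gave 7297 calls. Arrays give no read depth, and their number limits the precision: the median standard error of a difference was 0.12. A mean below the 40th percentile of all probe sets (about 2.39 with Dox and 2.36 with compound, called the filter level here) was taken as near background, and differences from such a mean are also given with that mean raised to the filter level, as a lower bound. The tissue label was checked against markers of the blood lineages, described further on. In bulk samples like these, fewer cells of a type and less RNA per cell cannot be told apart.

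Of the 4 factors, Klf4, a zinc finger transcription factor, differed most. It read 9.21, 9.16 and 9.06 on the Dox arrays and 3.31, 3.69 and 3.32 on the compound arrays, a 52.0-fold difference (log2 5.70, SE 0.13, limma adjusted p = 3.01e-09). Sox2 read 3.93, 4.56 and 3.60 with Dox and 2.43, 2.83 and 2.63 with compound (1.40, SE 0.22, limma adjusted p = 0.000508). Pou5f1 read 3.71, 3.30 and 3.73 with Dox against 2.81, 2.88 and 3.04 (0.67, SE 0.14, limma adjusted p = 0.00264). In all 3 genes the groups did not overlap, and the compound arrays lay close to the untreated level, with means of 3.27 for Klf4, 2.72 for Sox2 and 2.91 for Pou5f1 in untreated cells. Myc went the other way: it read 4.82, 4.72 and 4.16 with Dox and 7.83, 7.82 and 7.61 with compound, 9.11-fold lower with Dox (-3.19, SE 0.17, limma adjusted p = 3.81e-07), and 8.63 to 8.70 in untreated cells. It is not known here whether these probe sets detect the transgenes as well as the endogenous transcripts.

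The relatives and partners of the factors were split. Of 15 tested Kruppel-like factor genes other than Klf4, 8 were higher with Dox and 2 with compound (median 0.43). Klf8 read 7.40, 7.09 and 7.25 with Dox and 3.27, 3.59 and 3.58 with compound (3.77, SE 0.13, limma adjusted p = 3.16e-08), and Klf3, a repressor of the same family, differed by 3.24. Klf10 (1.87), a TGF-beta inducible member, and Klf9 (1.19) were also higher with Dox, while Klf7 was higher with compound (-1.45). Of 10 partners and antagonists of Myc, 3 were higher with Dox and 2 with compound. Mxd4, which pairs with Max in place of Myc and represses, accounted for the only difference past 2-fold: 8.70, 8.57 and 8.58 with Dox against 4.73, 4.88 and 4.67 with compound (3.86, SE 0.10, limma adjusted p = 7.65e-09) and 4.73 to 5.04 in untreated cells. Mnt, another Max-binding repressor, differed by 0.66.

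The pluripotency network of embryonic stem cells had no called gene on the Dox side. Of 20 listed genes 13 passed the filter, and limma called 0 higher with Dox (0 at unadjusted p under 0.05) and 3 higher with compound (median -0.11). Nanog, a core pluripotency factor that was named after its value was seen, read a mean of 2.52 with Dox and 2.50 with compound, both close to the filter level (0.03, limma adjusted p = 0.875). The largest difference in the list was Gdf3, a TGF-beta family ligand, at 3.35, 2.78 and 2.94 with Dox against 6.40, 5.69 and 6.19 with compound (-3.07, SE 0.20, limma adjusted p = 1.33e-06). Untreated cells read 5.57 to 5.77 for Gdf3, overlapping the compound arrays. Fut4, which makes the SSEA-1 sugar epitope, differed by at least -0.53 (-0.73 as measured), and Klf2, a Kruppel-like factor of the naive pluripotent state, was the third.

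Transcripts of the proteins that the compounds inhibit, and of relatives and partners of these proteins, differed in both directions. Of 13 listed genes 12 had a probe set of their own and 10 were tested. Acvr1b, a TGF-beta family type I receptor gene, read 6.75, 6.73 and 6.76 with Dox and 4.90, 4.71 and 4.52 with compound (2.04, SE 0.12, limma adjusted p = 6.21e-07). The deacetylase gene Hdac8 differed by 1.55 and Kdm1a, which encodes LSD1, by 1.16 (SE 0.12, limma adjusted p = 3.07e-05). Gsk3b, the kinase inhibited by CHIR, was higher with Dox by 0.38. Hdac3 (-0.93), Hdac1 (-0.64) and Rcor1 (-0.27), a scaffold that binds LSD1, were higher with compound. Hdac2 (-0.17), the TGF-beta receptor gene Tgfbr1 (0.08) and the monoamine oxidase gene Maoa (-0.07) did not pass, and Acvr1c and Maob were below the filter. The arrays read transcripts only, so they do not measure how far each protein was inhibited.

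Genes downstream of the inhibited pathways were described in 3 lists. Of 13 Wnt and beta-catenin targets, 4 were higher with Dox and 4 with compound (median 0.09). The Wnt antagonist gene Apcdd1 (1.37) and Tnfrsf19 (0.95) were the largest on the Dox side, and the adhesion receptor Cd44 (-1.93), the Wnt receptor ligase Rnf43 (-0.89) and cyclin D1 gene Ccnd1 (-0.77) on the compound side. Axin2, the usual feedback target of beta-catenin, differed by -0.15 (SE 0.17, limma adjusted p = 0.515). It was named after its value was seen. Of 17 TGF-beta targets, 7 were higher with Dox and 4 with compound (median 0.12). Skil (1.81) and Ski (1.23), which restrain Smad proteins, and Id2 (1.20) were higher with Dox. Bhlhe40 (-3.45), the ligand gene Tgfb1 (-2.19) and the matrix gene Tgfbi (-1.35) were higher with compound. Compound means lay above the untreated ones for Bhlhe40 (8.11 against 6.34), Tgfbi (4.85 against 3.49) and Id2 (5.10 against 4.24). They lay below the untreated ones for Tgfb1 (9.41 against 9.87), Skil (2.66 against 3.47) and Ski (4.82 against 5.74).

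The genes known to be repressed by LSD1 and Gfi1 leaned to the compound side. Of 12 tested, 8 were higher with compound, 6 of them at least 2-fold, and 2 with Dox (median -1.03). Csf1r, the receptor of the macrophage growth factor, read 3.58, 3.37 and 3.25 with Dox and 6.48, 6.72 and 6.28 with compound (-3.09, SE 0.14, limma adjusted p = 1.41e-07), with 3.49 to 3.96 in untreated cells. Lysozyme gene Lyz2 read 5.75, 6.31 and 6.48 with Dox and 9.23, 9.25 and 9.16 with compound (-3.04). Irf8, a transcription factor of the monocyte lineage, differed by -2.61 and Gfi1 itself by -1.73. Compound arrays stood above both other groups in all 4 genes. Ly96 (0.73), a co-receptor of the endotoxin receptor, and Id2 were the 2 members higher with Dox. Most of these genes are also myeloid markers, so the list shares members with those described next.

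The monocyte and macrophage markers showed the same side. Of 25 tested, 17 were higher with compound and 2 with Dox, and 14 of the 17 differed at least 2-fold (median -1.20). The mean over the list was 4.12 to 4.18 on the Dox arrays, 5.86 to 6.02 on the compound arrays and 4.05 to 4.14 on the untreated arrays. Gpnmb, a glycoprotein of mature macrophages, read 2.80, 2.83 and 2.80 with Dox and 8.67, 8.62 and 8.50 with compound (-5.79, SE 0.10, limma adjusted p = 9.33e-10). The lysosomal marker Cd68 read 4.95, 4.45 and 4.67 with Dox against 9.96, 9.64 and 9.45 (-4.99). Adgre1, which encodes F4/80, read 4.80, 4.83 and 4.79 with Dox and 9.41, 9.44 and 9.46 with compound (-4.63, SE 0.09, limma adjusted p = 1.8e-09), and 5.80 to 5.93 in untreated cells. The Fc receptor gene Fcgr3 differed by -4.34. The list was not uniform. Versican gene Vcan was higher with Dox by 0.63 (SE 0.11, limma adjusted p = 0.00106), and it read 8.64 to 8.75 with Dox, 7.92 to 8.22 with compound and only 2.79 to 3.15 in untreated cells. The CD11b gene Itgam, named after its values were seen, read 9.06 to 9.19 with Dox and 9.24 to 9.35 with compound (-0.18, limma adjusted p = 0.164), with 6.04 to 6.25 in untreated cells. For Itgam and Vcan, then, both treated groups lay far above the untreated arrays.

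**Figure D2:**
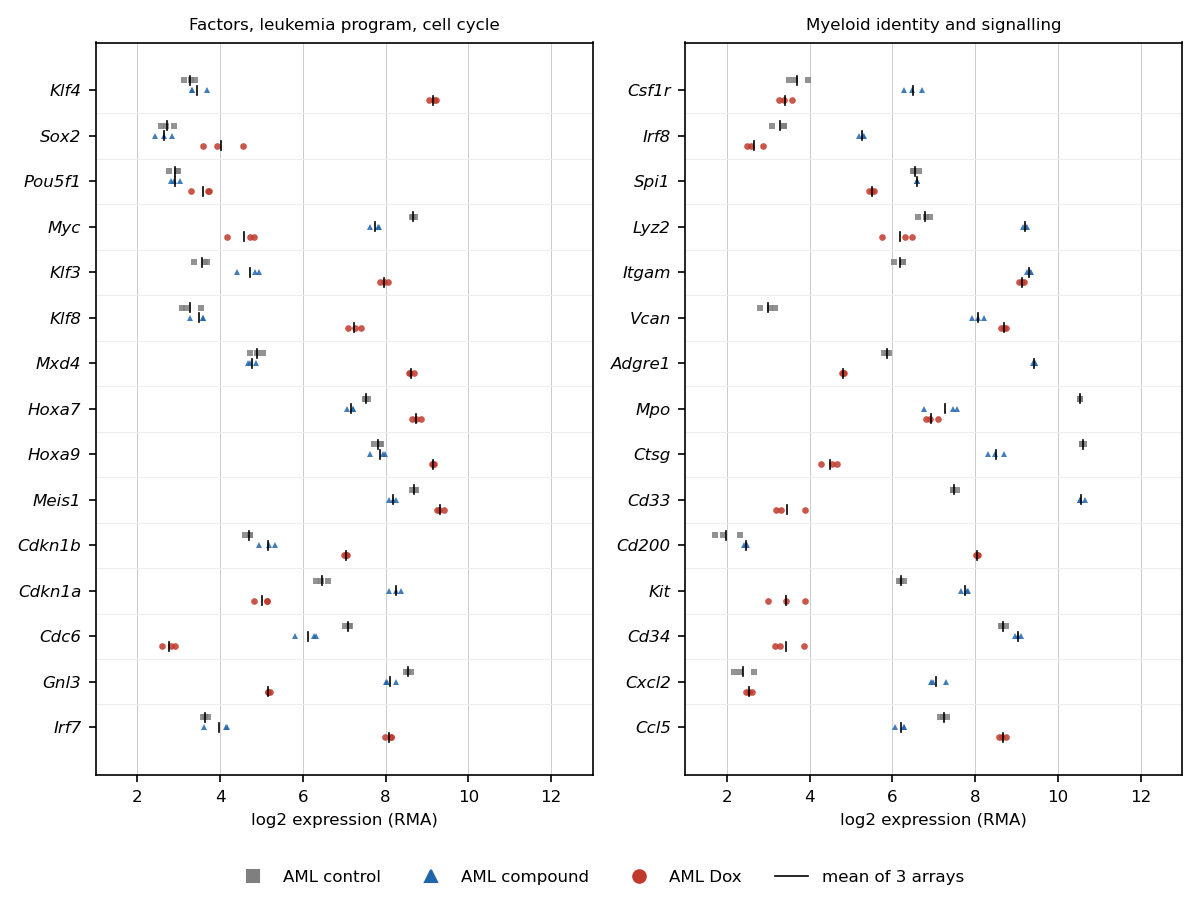
Log2 expression of 30 genes on each AML array: grey squares untreated, blue triangles compound, red circles Dox, with a black bar at the mean of the 3 arrays. The genes in this plot were picked after their values were seen, to show the main patterns. Klf4 and Irf7 are high with Dox alone, Csf1r and Cxcl2 with compound alone, and Itgam and Vcan with both treatments.

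Granule genes of the neutrophil lineage were lower with Dox in the early set and mixed in the late set. Of 9 primary granule genes, 7 were higher with compound (5 at least 2-fold, median -1.44), and limma called 0 higher with Dox (0 at unadjusted p under 0.05). Ctsg, the cathepsin G gene, read 4.27, 4.55 and 4.66 with Dox and 8.48, 8.69 and 8.31 with compound (-4.0, SE 0.14, limma adjusted p = 3.53e-08), both below the 10.58 to 10.64 of untreated cells. Ms4a3 differed by -2.61, the protease inhibitor gene Cst7 by -1.98 and the granule protease activator Ctsc by -1.80. Mpo, the myeloperoxidase gene (named after its values were seen), overlapped between treatments at 6.81 to 7.11 with Dox and 6.76 to 7.56 with compound, and read 10.54 to 10.55 in untreated cells. Of 10 tested secondary granule and late neutrophil genes, 4 were higher with compound and 3 with Dox (median 0.13). The collagenase gene Mmp8 read 2.98, 2.71 and 2.83 with Dox and 8.58, 8.87 and 8.44 with compound (-5.79, SE 0.14, limma adjusted p = 3.64e-09), and the gelatinase gene Mmp9 differed by -3.07. Cd177 (0.74) and S100a8 (0.70) were higher with Dox, both at low levels. Cd177 had means of 4.04 with Dox, 3.30 with compound and 3.26 untreated. S100a8 had means of 3.38, 2.68 and 3.28, so its Dox arrays lay close to the untreated level. Another 6 genes of this set, among them Camp and Ly6g, were below the filter in these cells.

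Antigen presentation genes followed the monocyte side where they differed. Of 13 tested dendritic cell and MHC class II genes, 6 were higher with compound (median -0.18), and limma called 0 higher with Dox (0 at unadjusted p under 0.05). The class II chain H2-Ab1 read 4.35, 4.45 and 4.38 with Dox and 7.25, 7.05 and 7.05 with compound (-2.72, SE 0.10, limma adjusted p = 5.81e-08). The costimulatory ligand Cd80 differed by -2.57, H2-DMa by -1.36 and H2-Aa by -1.17.

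Myeloid transcription factors were mostly lower with Dox. Of 16 tested, 12 were higher with compound (7 at least 2-fold) and 3 with Dox (median -0.75). Cebpb, which drives monocyte and stress myelopoiesis, differed by -2.02 and Runx1 by -1.19. Spi1, which encodes the myeloid master regulator PU.1 and was named after its values were seen, read 5.56, 5.52 and 5.44 with Dox against 6.59, 6.58 and 6.59 with compound (-1.08, SE 0.10, limma adjusted p = 9.87e-06), with 6.50 to 6.63 in untreated cells. The compound arrays were thus at the untreated level of Spi1 and the Dox arrays below it. Cebpd (1.88), Id2 and Jun (0.91) were higher with Dox. Cebpd spread widely among the Dox arrays, at 4.74, 5.81 and 5.39.

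Growth factor receptors and their feedback genes also differed. Of 11 receptor genes, 6 were higher with compound, all at least 2-fold, and 2 with Dox (median -1.38). Kit, the stem cell factor receptor, read 3.44, 3.0 and 3.89 with Dox and 7.83, 7.80 and 7.66 with compound (-4.32, SE 0.20, limma adjusted p = 1.39e-07), with 6.16 to 6.28 in untreated cells. Csf2rb2 differed by -3.19, Csf1r by -3.09 and the G-CSF receptor gene Csf3r by -1.70. Csf2rb2 has a near-identical neighbour, Csf2rb, so the array may not separate the pair. The shared cytokine receptor chain gene Il6st (1.29) and the interleukin receptor gene Il3ra (0.61) were higher with Dox. Of 11 SOCS, PIM and STAT feedback genes, 5 were higher with compound, among them Pim1 (-2.35), Cish (-2.18) and Osm (-1.63). Socs2 went the other way at 9.10, 9.17 and 9.18 with Dox and 7.73, 8.06 and 7.55 with compound (1.37, SE 0.14, limma adjusted p = 2.25e-05), both above the 5.25 to 5.45 of untreated cells. Bcl6 (1.18) and Stat3 (0.44) were also higher with Dox.

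Inhibitory receptors of myeloid cells held some of the largest differences of all. Of 12 tested, 9 were higher with compound and 1 with Dox (median -1.33). Cd33, a sialic acid binding receptor that is used as an AML surface marker, read 3.30, 3.90 and 3.19 with Dox and 10.65, 10.54 and 10.53 with compound (-7.11, SE 0.17, limma adjusted p = 4.5e-09), while untreated cells read 7.45 to 7.55. Lilrb4a read 4.42, 3.99 and 3.74 with Dox and 10.93, 11.04 and 10.78 with compound (-6.86, SE 0.17, limma adjusted p = 4.5e-09), with 6.15 to 6.85 untreated. Clec12a, a lectin receptor of AML cells, read 2.85, 2.68 and 2.92 with Dox and 8.80, 8.93 and 8.67 with compound (-5.98). In untreated cells Clec12a read 7.96 to 8.11, so the Dox arrays were far below that level and the compound arrays somewhat above it. The checkpoint ligand gene Cd274, which encodes PD-L1, differed by -2.70. Lilrb4a has close relatives in the same gene cluster, which the array may not separate. Cd200 alone stood on the Dox side: it read 8.03, 8.06 and 8.06 with Dox, 2.40, 2.47 and 2.49 with compound (5.59, SE 0.09, limma adjusted p = 9.33e-10) and 1.71 to 2.31 in untreated cells. Its protein is a ligand that restrains myeloid cells through Cd200r1, whose own transcript, named after its value was seen, was higher with compound (-1.74).

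Chemokine and inflammatory genes were high with compound. Ppbp, a platelet chemokine, read 2.69, 2.37 and 2.68 with Dox and 10.54, 10.43 and 10.40 with compound (-7.88, SE 0.12, limma adjusted p = 6.55e-10), and 2.47 to 2.94 in untreated cells. Cxcl3, which attracts neutrophils, read 1.69, 1.71 and 1.79 with Dox and 9.73, 9.63 and 9.31 with compound, a difference of at least -7.16 when the Dox mean is raised to the filter level. The measured difference was -7.83 (SE 0.13, limma adjusted p = 9.16e-10). Ccl3 read 3.57, 3.06 and 2.85 with Dox and 9.95, 9.93 and 10.06 with compound (-6.82). In each of these 3 genes the groups did not overlap, and the Dox arrays lay near or below the untreated level. Of 21 tested NF-kB and inflammatory genes, 10 were higher with compound (8 at least 2-fold) and 4 with Dox (median -0.48). They included Cxcl2 (-4.53), Tnf (-3.37) and Ccl4 (-2.81). Tnf read 6.92 to 7.22 in untreated cells, close to its 6.91 to 7.11 with compound, against 3.47 to 3.83 with Dox. On the Dox side stood Ccl5 (2.46), Nfkbiz (1.95) and Nfkbia (1.0), the last 2 of which encode proteins of the IkB family. Ccl5 read 8.58, 8.75 and 8.66 with Dox, 6.27, 6.28 and 6.06 with compound and 7.16 to 7.32 untreated, so the untreated arrays lay between the treatments.

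**Figure D3:**
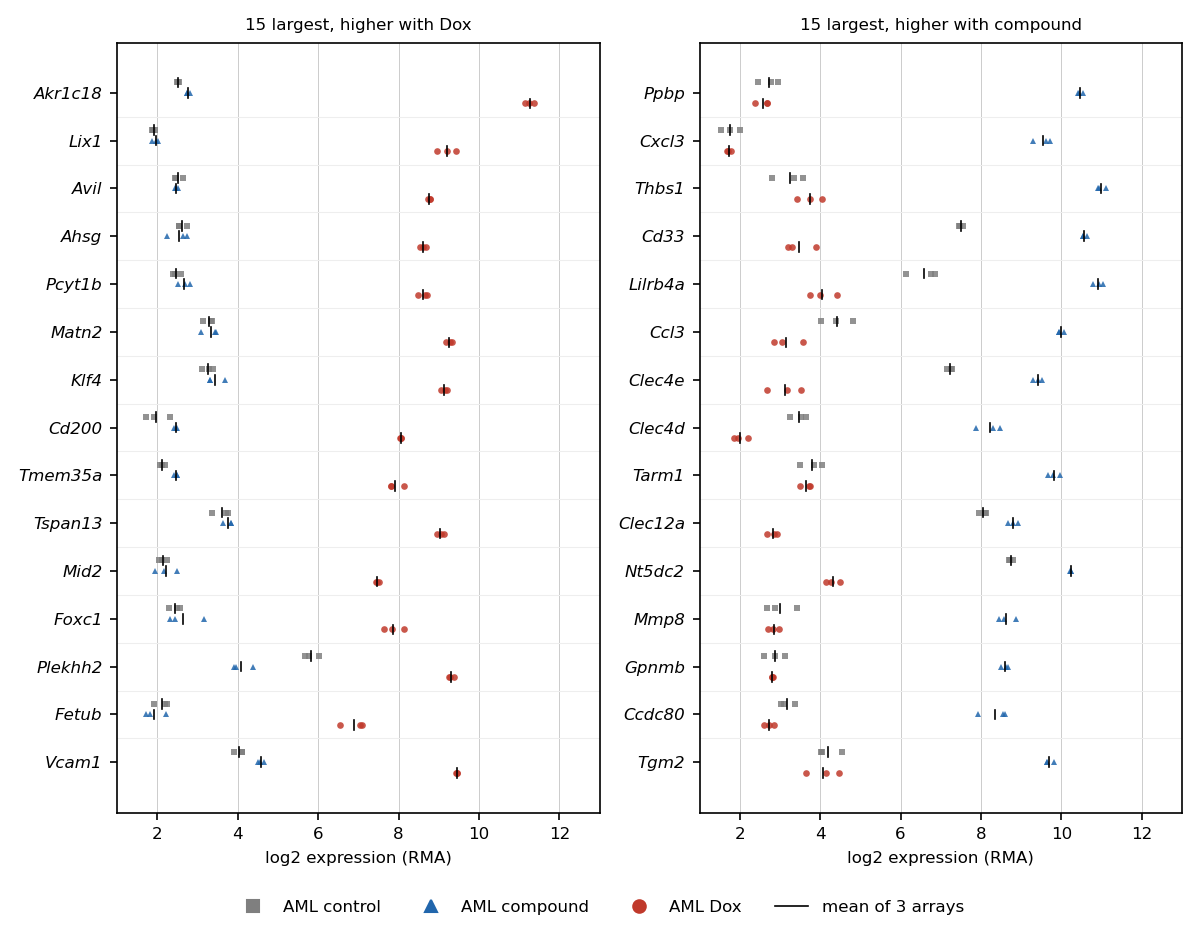
Log2 expression on each AML array of the 15 genes with the largest difference in each direction, left those higher with Dox and right those higher with compound. Grey squares are untreated, blue triangles compound and red circles Dox, and black bars mark the mean of 3 arrays. In the left panel the compound arrays lie close to the untreated ones in most genes, with Plekhh2 the widest gap between them.

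The 15 largest differences on the Dox side came from genes that read low with compound, with means of 1.91 to 4.57. The compound mean was under the filter level in 3 of them, Lix1, Mid2 and Fetub. Akr1c18, an aldo-keto reductase that inactivates progesterone, read 11.25, 11.38 and 11.15 with Dox and 2.75, 2.81 and 2.74 with compound (8.49, SE 0.10, limma adjusted p = 2.74e-10). Lix1 read 8.97, 9.42 and 9.21 with Dox and 2.03, 1.98 and 1.86 with compound, a difference of at least 6.84 (7.25 as measured). The actin-binding protein gene Avil differed by 6.29, the plasma glycoprotein gene Ahsg by 6.06 and its relative Fetub by at least 4.54. The phospholipid enzyme gene Pcyt1b and the matrix gene Matn2 both differed by 5.94, the tetraspanin gene Tspan13 by 5.28 and the forkhead factor gene Foxc1 by 5.23. Vcam1, an adhesion molecule that binds integrins, read 9.45, 9.43 and 9.45 with Dox and 4.51, 4.56 and 4.65 with compound (4.88, SE 0.10, limma adjusted p = 1.8e-09). Tmem35a (5.45), Mid2 (at least 5.11) and Plekhh2 (5.21) completed the 15, with Klf4 and Cd200. Plekhh2 read 5.67 to 6.02 in untreated cells, between the 2 treatments.

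On the compound side the 15 largest differences were mostly myeloid surface, secreted and matrix genes. Besides those described above, they held thrombospondin gene Thbs1, at 4.04, 3.75 and 3.43 with Dox against 10.93, 11.11 and 10.92 with compound (-7.25, SE 0.15, limma adjusted p = 2.48e-09). The C-type lectin genes Clec4e (-6.29) and Clec4d (at least -5.82) sense microbial glycolipids, and Tarm1 (-6.15) is an activating receptor of myeloid cells. Transglutaminase gene Tgm2 read 3.65, 4.46 and 4.14 with Dox and 9.65, 9.81 and 9.64 with compound (-5.62). Ccdc80 (-5.63), a matrix protein gene, had a second probe set that differed in the same direction. Nt5dc2 (-5.92) read 8.71 to 8.80 in untreated cells, below its 10.21 to 10.24 with compound and far above its 4.15 to 4.50 with Dox. Clec4e, too, was well expressed without treatment, at 7.15 to 7.27.

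Genes of the MLL-AF9 program were among the few lists that leaned to Dox. Of 17 tested, 13 were higher with Dox, 7 of them at least 2-fold, and 2 with compound (median 0.66). Hoxa7 read 8.73, 8.85 and 8.63 with Dox and 7.20, 7.22 and 7.06 with compound (1.58, SE 0.11, limma adjusted p = 1.73e-06), with 7.50 to 7.58 in untreated cells. Hoxa5 differed by 1.27, the Hox cofactor gene Pbx3 by 1.39 and the translation regulator gene Cpeb2 by 3.82. Hoxa9 and Meis1, the best known pair of this program (named after their values were seen), differed by 1.29 and 1.14, 2.44-fold and 2.20-fold. Meis1 read 9.24 to 9.40 with Dox, 8.09 to 8.24 with compound and 8.63 to 8.74 untreated. Mef2c and Myb were higher with compound, each by 0.72 on the log2 scale (-0.72), although a dimmer probe set of Myb differed by 0.24 and one of Mef2c by -0.01.

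Stem and progenitor markers did not follow the Hoxa genes. Of 16 tested, 5 were higher with compound and 3 with Dox (median -0.05). Cd34, a surface glycoprotein of progenitors, read 3.29, 3.86 and 3.17 with Dox and 9.04, 8.97 and 9.10 with compound (-5.60, SE 0.17, limma adjusted p = 1.69e-08), with 8.63 to 8.74 untreated. Kit was described above, and Gata2 (-1.96) and Erg (-1.26), transcription factors of stem cells, were also higher with compound. Mllt3, which encodes AF9, was higher with Dox by 1.82 and Msi2, an RNA-binding protein gene, by 0.70. It is not known here whether the Mllt3 probe set also detects the fusion transcript.

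DNA replication genes were lower with Dox almost throughout. Of 29 tested, 27 were higher with compound, 22 of them at least 2-fold (median -1.63), and limma called 0 higher with Dox (0 at unadjusted p under 0.05). The mean over the list was 4.99 to 5.0 on the Dox arrays, 6.54 to 6.69 on the compound arrays and 7.23 to 7.27 on the untreated arrays. Mcm6, a subunit of the replicative helicase, read 5.67, 5.99 and 5.82 with Dox and 8.46, 8.54 and 8.42 with compound (-2.65, SE 0.11, limma adjusted p = 1.05e-07). Mcm2, another subunit, differed by -2.91, the helicase cofactor gene Cdc45 by -2.56 and the licensing factor gene Cdt1 by -2.40. Cdc6, which loads the helicase and was named after its values were seen, read 2.59, 2.82 and 2.92 with Dox and 6.26, 6.33 and 5.82 with compound (-3.36), with 7.03 to 7.15 in untreated cells. In untreated cells Cdc6, Mcm2, Mcm6, Cdc45 and Cdt1 read above both treatments.

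Promoters of these genes are known to hold E2F sites, and stretches of 3 that hold the letters are shown. The windows ran from 250 bases before to 50 after the start in RefSeq GRCm38.p6, and 9418 of the 14791 genes tested had exactly 1 window. The letters searched, on both strands, were TTCCCGC and TTGGCGC for E2F. They occurred in 52.4% of 21 replication promoters with 1 window and in 11.6% of all promoters of tested genes. Below, the match is in capitals, read on the gene's strand from 5′ to 3′. The stretches lie at chr11:98907998-98908034 (plus strand, 153 to 117 bases before the start) for Cdc6, chr1:128359730-128359829 (minus strand, 124 to 25 bases before) for Mcm6 and chr8:75109330-75109381 (plus strand, 179 to 128 bases before) for Mcm5. Mcm5 differed by -2.30. Among promoters of the list with 1 window and a match before the start, the 3 genes with the largest differences were picked.
Cdc6: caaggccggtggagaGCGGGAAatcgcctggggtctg
Mcm6: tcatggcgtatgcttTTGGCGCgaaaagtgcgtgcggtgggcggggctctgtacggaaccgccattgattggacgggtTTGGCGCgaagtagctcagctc
Mcm5: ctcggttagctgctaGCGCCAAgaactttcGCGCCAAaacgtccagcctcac
A match is a description of these letters and does not show binding.

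Genes of mitosis differed less and in both directions. Of 24 tested, 16 were higher with compound, 8 of them at least 2-fold, and 3 with Dox (median -0.61). The checkpoint kinase gene Bub1 differed by -1.67, Aurkb by -1.51 and the topoisomerase gene Top2a by -1.13. Nusap1 (0.72) and Ccnb2 (0.49) were higher with Dox. The proliferation marker Mki67 (named after its value was seen) was not called, at -0.18 (limma adjusted p = 0.194). The list mean was 6.08 to 6.15 with Dox, 6.61 to 6.76 with compound and 7.49 to 7.52 in untreated cells. The CHR element TTTGAA, which mitotic promoters are known for, occurred in 75% of 20 mitosis promoters against 12.3% of all, and CCAAT in 80% against 38.6%. CCAAT was also found in 71.4% of the 21 replication promoters. TTTGAA lies within one TCF motif searched, CTTTGAA. As an example, Cdk1, the mitotic kinase gene, is shown because its 2 CHR letters lie within 86 bases of the start, at chr10:69352913-69352998 on the minus strand. It was picked for that match and for its difference of -1.14, the largest among mitosis promoters with 1 window and a match before the start.
Cdk1: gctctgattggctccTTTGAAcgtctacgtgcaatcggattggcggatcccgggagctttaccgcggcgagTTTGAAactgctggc

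The switches of G1 phase moved apart between the treatments. Of 14 cyclin, kinase and E2F genes of this phase, 11 were higher with compound and 2 with Dox (median -0.63). Ccnd2, a D-type cyclin gene, read 4.94, 4.88 and 4.71 with Dox and 7.81, 7.90 and 7.70 with compound (-2.96, SE 0.11, limma adjusted p = 5.16e-08). Rbl1 differed by -2.02, Ccne1 by -1.82 and Cdk4 by -1.47. Rb1, the retinoblastoma gene that holds E2F back, read 9.75, 9.81 and 9.77 with Dox and 8.04, 7.95 and 7.96 with compound (1.79, SE 0.10, limma adjusted p = 3.62e-07). Cdk6 was also higher with Dox (0.64). Of 7 CDK inhibitor genes, 3 were higher with Dox and 1 with compound (median 0.48). Cdkn1b, which encodes p27, read 7.06, 7.0 and 7.04 with Dox against 5.19, 5.34 and 4.93 (1.88, SE 0.12, limma adjusted p = 1.23e-06). Cdkn1a, which encodes p21, read 4.82, 5.12 and 5.14 with Dox and 8.26, 8.38 and 8.09 with compound (-3.22, SE 0.13, limma adjusted p = 7.1e-08), with 6.33 to 6.61 in untreated cells. The 2 inhibitors therefore stood on opposite sides, each above its untreated level in the cells where it was high.

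All 14 tested genes of DNA damage and repair were higher with compound, each at least 2-fold (median -1.79). The nuclease gene Exo1 read 3.53, 3.72 and 3.26 with Dox and 6.31, 6.47 and 6.39 with compound (-2.88, SE 0.13, limma adjusted p = 1.45e-07), with 6.99 to 7.09 untreated. The helicase gene Blm differed by -2.67, Rad54l by -2.60 and the mismatch repair gene Msh6 by -1.76. The list mean was 3.76 to 3.87 with Dox, 5.67 to 5.81 with compound and 6.07 to 6.09 in untreated cells. Several of these genes are also expressed mainly in cycling cells.

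Ribosome biogenesis genes were all higher with compound too. That held for all 20 tested, 18 of them at least 2-fold (median -1.97). Gnl3, which encodes nucleostemin, read 5.16, 5.15 and 5.20 with Dox and 8.24, 8.03 and 8.02 with compound (-2.92, SE 0.11, limma adjusted p = 4.31e-08), with 8.49 to 8.60 untreated. Nop58 (-2.65), a core protein of small nucleolar particles, Ppan (-2.29) and Utp20 (-2.20) were also higher with compound. The list mean was 5.73 to 5.81 with Dox, 7.60 to 7.65 with compound and 8.13 to 8.15 untreated. Many of these genes are known Myc targets. The E-box CACGTG, the letters Myc and Max bind, was found in 31.2% of 16 promoters of this list and in 9.78% of all. In Nop2 (-2.64), picked for its match, it lies within the stretch shown, chr6:125131808-125131843 (plus strand, 75 to 40 bases before the start).
Nop2: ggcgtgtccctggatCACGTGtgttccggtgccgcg

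The supply of building blocks showed the same side. Of 13 polyamine and nucleotide synthesis genes, 8 were higher with compound and 3 with Dox (median -0.59). Srm, the spermidine synthase gene, read 5.60, 5.02 and 5.54 with Dox and 9.58, 9.44 and 9.29 with compound (-4.05, SE 0.16, limma adjusted p = 7.46e-08). Odc1, the rate-limiting enzyme of polyamine synthesis, differed by -2.53 and the pyrimidine gene Cad by -2.31. The purine synthesis gene Gart differed by -3.02 at its brightest probe set and by -0.29 and -0.87 at the others. The genes on the Dox side act against polyamine build-up: Sat1 (1.56) acetylates polyamines for export, and Oaz2 (0.58) and Oaz1 (0.41) encode antizymes that inhibit Odc1. Of 12 amino acid transporter genes, 10 were higher with compound and 1, Slc7a3 (0.96), with Dox (median -1.36). Slc7a3 was dim, with means of 3.38 with Dox and 2.43 with compound. The cystine transporter gene Slc7a11 read 2.35, 2.32 and 2.42 with Dox and 7.32, 7.37 and 6.95 with compound, and 4.55 to 4.92 untreated. The measured difference was -4.85 (SE 0.13, limma adjusted p = 6.98e-09), and at least -4.82 with the Dox mean at the filter level. The large neutral amino acid transporter pair Slc3a2 (-1.89) and Slc7a5 (-1.78) also differed. The polyamine and nucleotide list mean was 5.99 to 6.03 with Dox, 7.04 to 7.14 with compound and 7.15 to 7.19 untreated. For amino acid transporters it was 5.34 to 5.42, 6.77 to 6.83 and 6.85 to 6.93. In both lists the compound arrays lay just below the untreated ones and the Dox arrays far below.

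Stress and metabolic lists leaned to the compound side as well. Of 19 unfolded protein and ATF4 response genes, 14 were higher with compound (median -0.96), with Xbp1 at -2.85, the serine synthesis gene Phgdh at -2.73 and Sdf2l1 at -2.69, and limma called 0 higher with Dox (0 at unadjusted p under 0.05). Of 11 heat shock genes, 8 were higher with compound, among them Hsph1 (-2.44) and the mitochondrial chaperone gene Hspa9 (-2.34), and 1 with Dox, Dnajb1 (0.59). Of 12 oxidative stress genes, 8 were higher with compound and 2 with Dox (median -1.0). Gsr, the glutathione reductase gene, differed by -2.48 and Hmox1, the heme oxygenase gene, by -1.84. The malic enzyme gene Me1 was higher with Dox (1.44). Of 17 glycolysis and hypoxia genes, 14 were higher with compound (8 at least 2-fold, median -0.93), and limma called 0 on the Dox side (0 at unadjusted p under 0.05). Vegfa, the vascular growth factor gene, read 3.85, 4.24 and 3.97 with Dox and 8.85, 8.90 and 8.84 with compound (-4.85, SE 0.12, limma adjusted p = 5.18e-09), with 7.0 to 7.04 untreated. The hexokinase gene Hk2 differed by -2.71 and the lactate exporter gene Slc16a3 by -2.37. The unfolded protein list mean was 5.57 to 5.64 with Dox, 6.68 to 6.77 with compound and 7.03 to 7.14 untreated. For heat shock it was 5.48 to 5.50, 6.32 to 6.54 and 6.62 to 6.66. For oxidative stress it was 6.83 to 6.88, 7.49 to 7.68 and 7.18 to 7.21. For glycolysis and hypoxia it was 6.08 to 6.17, 7.35 to 7.46 and 7.35 to 7.43. Only for oxidative stress did all compound arrays lie above the untreated ones.

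Cholesterol synthesis genes stood on the compound side, and other lipid genes were mixed within their lists. Of 15 cholesterol synthesis genes, 12 were higher with compound, 5 at least 2-fold (median -0.50), and limma called 0 higher with Dox (0 at unadjusted p under 0.05). The squalene epoxidase gene Sqle differed by -2.54 and Fdps by -1.54. The cholesterol synthesis list mean was 5.01 to 5.05 with Dox, 5.82 to 5.84 with compound and 5.93 to 5.98 untreated. Of 13 genes of fatty acid synthesis and lipid handling, 7 were higher with compound and 4 with Dox. Elovl6, which lengthens fatty acids, read 4.34, 4.71 and 4.69 with Dox and 7.98, 7.84 and 7.94 with compound (-3.34). Abca1, the cholesterol exporter gene, read 6.66, 6.61 and 6.73 with Dox and 3.57, 3.52 and 3.38 with compound (3.17, SE 0.10, limma adjusted p = 2.24e-08). Mylip (1.10), which targets the LDL receptor for breakdown, was also on the Dox side. Of 20 lysosome and autophagy genes, 12 were higher with compound, led by cathepsin genes such as Ctsz (-2.33) and Ctsl (-1.85), and 7 with Dox. The autophagy genes Ulk1 (1.76) and Map1lc3b (1.30) were among the 7. The lysosome and autophagy list mean was 7.20 to 7.26 with Dox, 7.47 to 7.52 with compound and 6.67 to 6.73 untreated.

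**Figure D4:**
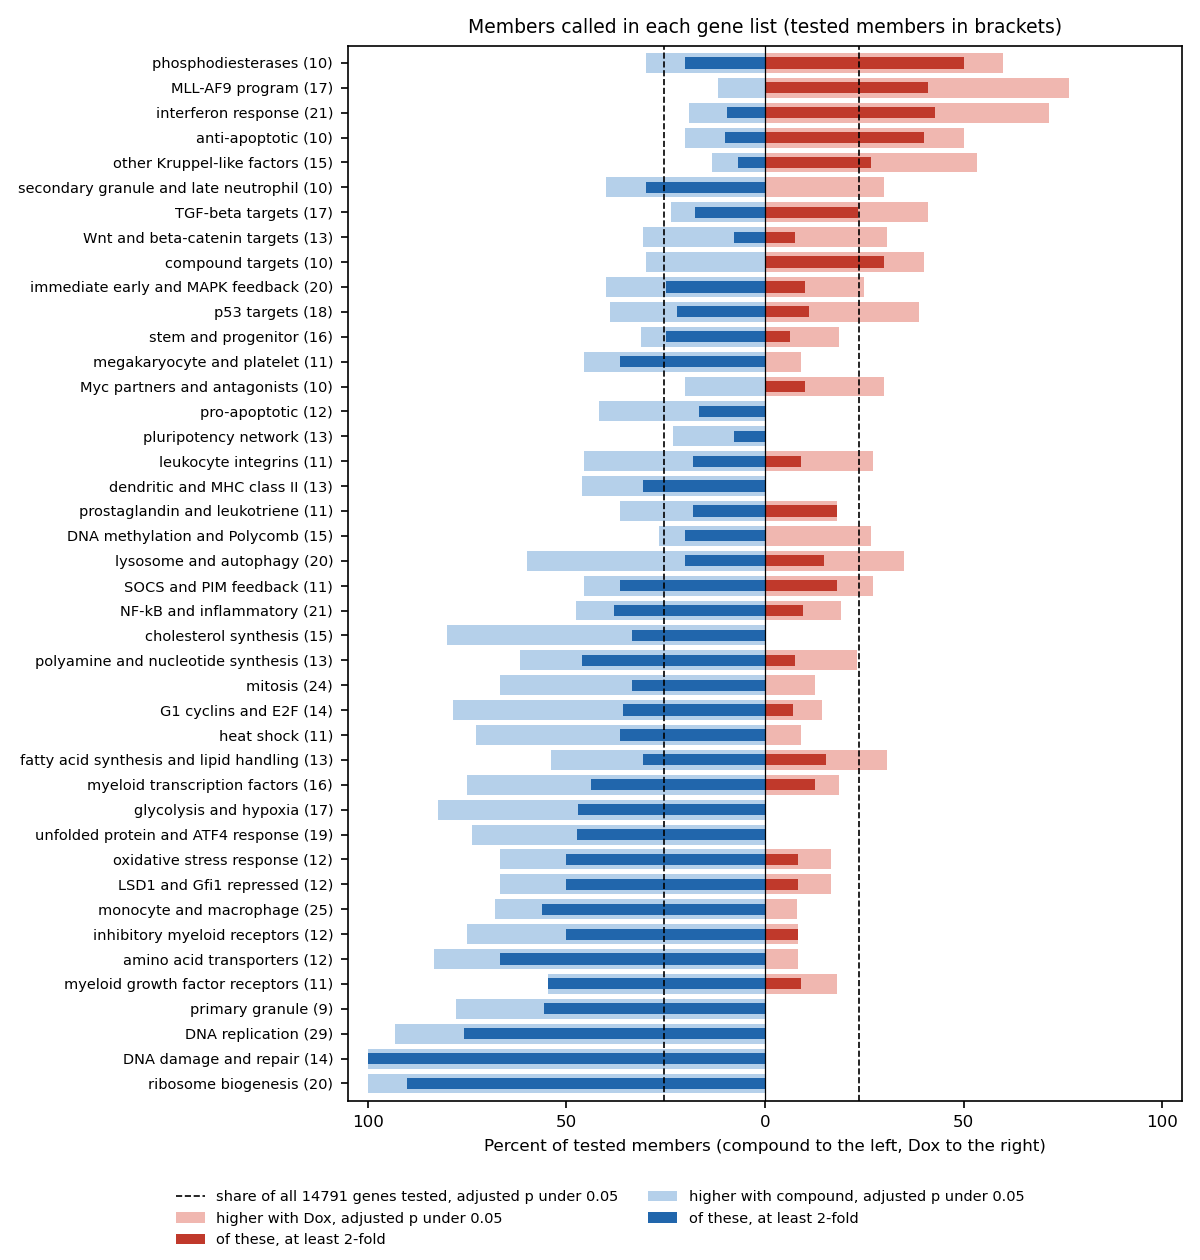
Share of tested members called in each of the gene lists with at least 9 tested members, higher with Dox to the right (red) and with compound to the left (blue); darker bars are the part past 2-fold. Dashed lines mark the shares over all 14791 genes, 23.8% and 25.5%. DNA damage and repair and ribosome biogenesis reach 100% on the compound side, and the MLL-AF9 program and the interferon response extend farthest on the Dox side.

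The interferon response was the largest list that leaned to Dox. Of 21 tested, 15 were higher with Dox, 9 of them at least 2-fold, and 4 with compound (median 0.62). Irf7, the factor that amplifies interferon production, read 8.12, 8.13 and 7.98 with Dox and 4.17, 4.15 and 3.61 with compound (4.10, SE 0.16, limma adjusted p = 5.6e-08), with 3.60 to 3.71 untreated. Oas2, an RNA-activated antiviral enzyme gene, read 8.21, 8.32 and 8.35 with Dox and 5.28, 5.30 and 5.70 with compound (2.86). Ifit1 differed by 2.57 and Ifih1, the sensor MDA5, by 1.75. The Ifit genes resemble each other, so the array may not separate them fully. The 4 on the compound side were Oasl1 (-1.05), Usp18 (-1.01), Bst2 (-0.90) and Ifit2 (-0.75). Usp18, which restrains interferon signalling, read 6.77, 6.76 and 6.91 with Dox, 7.83, 7.79 and 7.84 with compound and 3.42 to 3.76 untreated, so both treatments lay above the untreated level. The list mean was 5.56 to 5.62 with Dox, 4.58 to 4.78 with compound and 3.98 to 4.01 in untreated cells.

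The interferon-stimulated response element, searched on both strands as GAAA, any 2 bases and GAAA again, occurred in 71.4% of 14 interferon promoters with 1 window and in 3.13% of all. It is shown in a gene on each side of the comparison, because both hold the letters. These 2 genes differed most among list members with 1 window and a match before the start. Ifit1, higher with Dox, holds 2 matches within chr19:34640770-34640828 (plus strand, 119 to 61 bases before the start). Bst2, higher with compound, holds 2 overlapping matches within chr8:71537572-71537617 (minus strand, 145 to 100 bases before the start), printed as 1 run of capitals.
Ifit1: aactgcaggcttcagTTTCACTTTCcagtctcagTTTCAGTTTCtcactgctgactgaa
Bst2: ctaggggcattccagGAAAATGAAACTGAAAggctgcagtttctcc

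The promoters of the most different genes were searched as well. Kruppel-like factors bind GC-rich letters, and the core CACCC occurred in 63.9% of 61 promoters of the 100 genes with the largest difference on the Dox side, 55.7% of 61 on the compound side and 62.8% of all. The longer GGGCGTG occurred in 14.8%, 11.5% and 14.2%. For the TCF letters CTTTGAA and CTTTGAT, which beta-catenin partners bind, the shares were 8.2%, 6.56% and 6.09%.

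**Figure D5:**
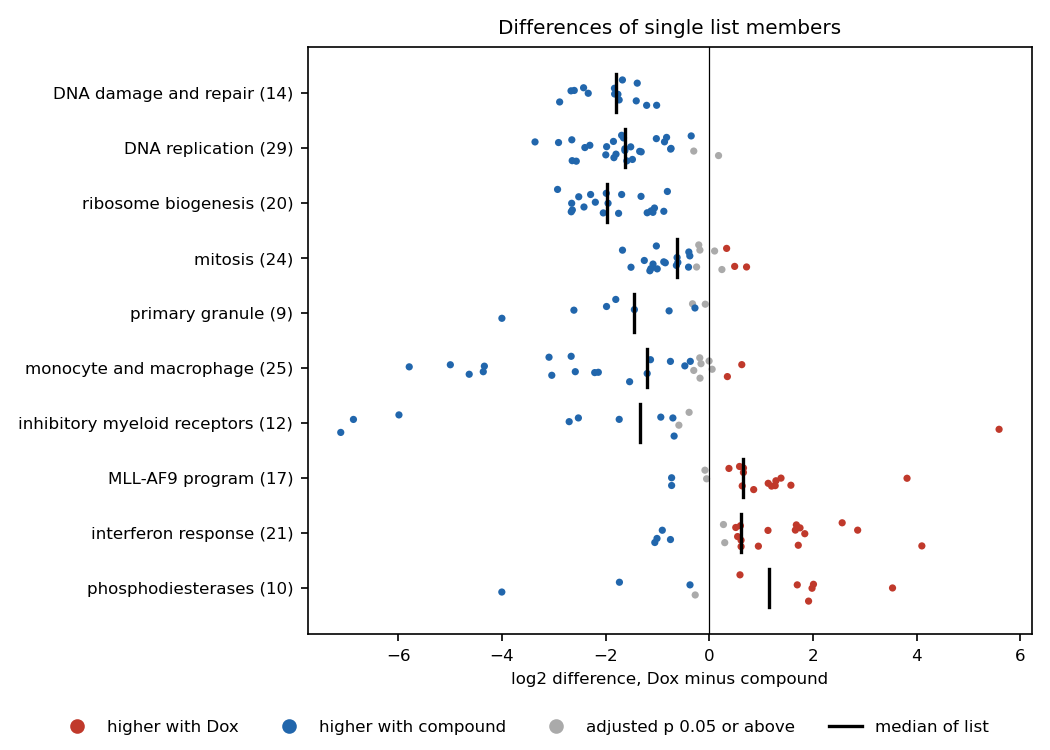
Log2 difference of each tested member of 10 gene lists (Dox minus compound), red where higher with Dox and blue where higher with compound at an adjusted p under 0.05, with a black bar at the list median. All points of DNA damage and repair and of ribosome biogenesis lie left of 0. In the inhibitory myeloid receptors Cd200 is the single point far to the right.

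Survival genes and p53 targets were divided. Of 18 tested p53 targets, 7 were higher with Dox and 7 with compound (median -0.02). Trp53inp1, a p53-induced autophagy regulator, read 7.38, 7.58 and 7.52 with Dox and 5.50, 5.46 and 5.19 with compound (2.11, SE 0.12, limma adjusted p = 5.4e-07), and Perp (1.08) and Plk2 (0.99) were on the same side. Cdkn1a, Sesn2 (-1.41) and Xpc (-1.11) were higher with compound. Of 12 pro-apoptotic genes, 5 were higher with compound (median -0.08), among them Bid (-1.88), Pmaip1 (-1.78), which encodes Noxa, and Bcl2l11 (-0.90), which encodes Bim, and limma called 0 higher with Dox (0 at unadjusted p under 0.05). Of 10 anti-apoptotic genes, 5 were higher with Dox and 2 with compound (median 0.43). The inhibitor of apoptosis genes Birc2 (1.15), Birc3 (1.10) and Xiap (1.02) and the caspase-8 inhibitor Cflar (1.05) were higher with Dox. Bcl2a1a (-2.93), which has near-identical copies, and Birc5 (-0.60) were higher with compound.

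Signalling feedback genes were mixed. Of 20 immediate early and MAPK feedback genes, 8 were higher with compound and 5 with Dox (median -0.02). Ier3 (-2.73), Fos (-2.48), Dusp5 (-2.36) and Fosl2 (-1.39) were higher with compound, and the Ras pathway inhibitors Spry2 (2.14) and Spred1 (1.33) with Dox. Of 10 phosphodiesterase genes, which break down cyclic nucleotides, 6 were higher with Dox and 3 with compound (median 1.15). Pde5a read 6.26, 6.16 and 6.06 with Dox and 2.25, 3.21 and 2.41 with compound (3.54, SE 0.22, limma adjusted p = 9.63e-07). Pde4b (1.98), Pde7a (1.92) and Pde3b (1.70) were also higher with Dox. Pde2a read 3.55, 3.37 and 3.65 with Dox and 7.57, 7.49 and 7.51 with compound (-4.0, SE 0.11, limma adjusted p = 7.51e-09), with 6.61 to 6.68 untreated. Of 11 prostaglandin and leukotriene genes, 2 were higher with Dox, Akr1c18 and the prostaglandin E2 receptor gene Ptger4, and 4 with compound. Ptger4 read 8.54, 8.68 and 8.70 with Dox and 4.84, 4.77 and 4.54 with compound (3.92, SE 0.11, limma adjusted p = 1.29e-08). Alox5ap (-1.50) and Hpgd (-1.33), which degrades prostaglandins, were on the compound side.

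Chromatin regulators of DNA methylation and the Polycomb complexes were evenly split, with 4 of 15 higher on each side (median -0.20). Uhrf1, which guides maintenance methylation at replication, differed by -2.17 and Dnmt1 by -1.04. The Polycomb genes Suz12 (-1.02) and Eed (-0.67) were also higher with compound. The DNA demethylase genes Tet3 (0.74), Tet2 (0.68) and Tet1 (0.54) and the methyltransferase gene Ezh1 (0.88) were higher with Dox. Of 11 integrin genes, 5 were higher with compound, led by Itgb7 (-1.75) and Itgb2 (-1.03), and 3 with Dox, led by Itgb1 (1.52).

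Markers of other cell types were low in all 6 arrays with a few exceptions. Of the B cell and the T and NK cell lists, 5 and 6 genes passed the filter, and limma called 0 in both (0 at unadjusted p under 0.05). The list mean stayed between 2.28 and 2.54 for B cells and between 2.29 and 2.44 for T and NK cells, close to the filter level. The 7 tested epithelial genes had 0 calls (0 at unadjusted p under 0.05), and of 6 mesenchymal genes only vimentin gene Vim was called (1.98). Of 7 stromal and endothelial genes, only Pecam1 (-0.75), which leukocytes also express, was called. In the erythroid list the embryonic globin gene Hbb-y read 7.32, 7.65 and 7.91 with Dox, 3.41, 3.34 and 2.86 with compound (4.42, SE 0.19, limma adjusted p = 9.5e-08) and 2.10 to 2.29 untreated, while the transferrin receptor gene Tfrc was higher with compound (-3.46) and the other 6 tested genes, among them Gata1 and Klf1, were not called. Globin genes share sequence, so the signal cannot be assigned to Hbb-y alone with certainty. Of 11 megakaryocyte and platelet genes, 5 were higher with compound and 1, the integrin gene Itga2b, with Dox. Ppbp, Thbs1, Plek (-3.47), Pf4 (-1.37) and Itgb3 were on the compound side, and the defining platelet receptor genes Gp5 and Gp9 and the platelet protein genes Vwf and Treml1 were not called. The mean of this list was 2.94 to 3.05 with Dox, 4.55 to 4.67 with compound and 2.99 to 3.13 untreated. Of 5 tested mast cell and basophil genes, 3 were higher with compound: Cpa3 (at least -2.07), Gata2 and Hdc (-1.84). The list mean was 2.50 to 2.54 with Dox and 3.03 to 3.18 with compound, and the part of such cells in any other result was not tested. Ptprc, the pan-leukocyte marker CD45 (named after its values were seen), read 8.57 to 8.70 with Dox and 8.72 to 8.83 with compound (-0.11, limma adjusted p = 0.401).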

How the data were processed

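RNA of sorted mouse AML cells was measured on 1-colour whole-transcript arrays. The deposited values are log2 expression per probe set made by the authors with RMA, per the submitters' processing notes; its version and the build are not given in those sources. Of 41345 probe sets, 23521 named 1 gene, 1814 several, and 16010 were not listed in the platform table. Only the first kind was used, with 1 probe set for each of 22180 genes, the one with the highest mean over all 18 arrays. A gene was tested if it lay above the 40th percentile of its array on at least 3 of the 6 arrays.

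limma 3.58.1 in R 4.3.3 (lmFit, eBayes) compared 3 Dox with 3 compound arrays, and p-values of all 14791 genes tested were adjusted together (Benjamini-Hochberg), with a threshold of 0.05. The step was tested on simulated data with far fewer changed genes than were called here, so that test does not cover the present setting. The prior SD was 0.151 with 5.18 degrees of freedom, beside 4 residual degrees of freedom. Of the genes tested, 77 had both means under the filter level.

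The comparison, the 51 gene lists (708 genes with a probe set) and the motifs were chosen with earlier results of these data known. List counts hold only members that passed the filter, and a member that passed through 1 group alone had to differ, so the counts are descriptions. Named are the 4 factors and every member of the compound target list with a probe set of its own. The 15 largest differences each way among called genes whose arrays do not overlap are named too. So are up to 4 members with the smallest p per list and direction. Exceptions are said to be named after their values were seen. Predicted genes, small RNA genes, olfactory and vomeronasal receptors and receptor segments were left out of the ranking only. Same replicate numbers did not deviate together (r of deviations -0.036, 0.0348 and -0.0217), so the arrays were not treated as pairs. Promoter sequences are from RefSeq GRCm38.p6. Alternatives covered normalization, filter, probe set choice, prior, replicate block and each array left out.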

Additional observations from a re-analysis of the deposited data

How the results depend on the processing

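Over all alternatives the count of genes called ran from 6592 to 7457 against 7290. It was 7240 with each array centred on its median, 7457 with quantile normalization, 7187 without a filter, 6948 with a 60th percentile filter, 7299 with dim values set to the filter level, 7252 with the mean of probe sets, 7297 with the probe set chosen on the 6 arrays and 7450 with a trended robust prior. Leaving out each array in turn gave 6592 to 7271, with the fewest without AML Dox replicate 2. The replicate number as a block, which the labels do not describe as a pairing, gave 7110 calls. Of the calls shared with the reported fit, 1 had the opposite sign with the mean of probe sets, 3 with the probe set chosen on the 6 arrays and 0 under the other alternatives. Centring moved the median difference of all genes by -0.06 and quantile normalization by -0.04, and the share of calls higher with Dox went from 48.3% to 43.2% and 44.8%. Of 268 to 277 named genes that could be compared, 264 to 277 kept direction and side of the threshold under each alternative. Tgfbr1 and Maoa, which were not called, changed sign when an array was left out: Tgfbr1 to -0.0004 without AML Dox replicate 2 and -0.1001 without AML compound replicate 3, Maoa to 0.0347 and 0.0481. Without AML compound replicate 2 they read 0.2242 and -0.2079. Calls lost under at least 1 alternative were small differences, among them Klf2, Gsk3b, Rcor1, Lef1, Myb, Cx3cr1, Cdc20 and Ifit2. Dimmer probe sets of Irf8 (-0.23), Pim1 (-0.39), Slc7a11 (-1.13), Klf7 (-0.35), Alox5ap (-0.45) and Pde7a (0.77) gave differences of the same sign but smaller than those reported. Signal near background limits differences from means below the filter level, which are lower bounds.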

Other observations

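Gene families gathered by symbol after their values were seen, and so given as descriptions with no test of the family, showed further groups that differed between the treatments. Of 9 protein-coding Hoxa genes with a probe set, all were tested and 8 were higher with Dox, 7 of them at least 2-fold (median 1.27). Hoxa2 read 6.61, 7.04 and 7.15 with Dox and 5.21, 5.15 and 4.33 with compound (2.04, SE 0.24, limma adjusted p = 6.14e-05), and Hoxa3 differed by 1.82. Of 16 tested lysine demethylase genes of the Kdm family, which remove histone methyl groups, 14 were higher with Dox and 10 of these at least 2-fold (median 1.15). Kdm5d (at least -0.18) was higher with compound. Kdm5b read 8.85, 8.96 and 8.81 with Dox and 6.60, 6.71 and 6.42 with compound (2.30, SE 0.11, limma adjusted p = 2.26e-07), against 6.42 to 6.58 untreated. Kdm4b differed by 2.0, Kdm6a by 1.87 and Kdm3a by 1.78. The compound mean lay below the untreated one in some members, such as Kdm6a (6.57 against 7.36) and Kdm3b (6.58 against 7.24). For Kdm7a it lay above (5.17 against 3.37). Guanylate-binding protein genes, which interferon induces, were higher with Dox in 8 of 9 (median 0.73), with Gbp9 at 2.48. In several of them the compound arrays also lay above the untreated ones. Gbp7 had means of 9.60 with Dox, 9.08 with compound and 7.83 untreated, and Gbp10 6.14, 5.45 and 4.11. For Gbp3 the compound mean was close to the untreated one (5.62 against 5.46). Guanylate-binding protein genes have near-identical copies. Of 49 tripartite motif genes, 23 were higher with Dox and 2 with compound.

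On the compound side, 6 of 7 tested Clec4 lectin genes were higher. The median of the 7 was -2.22, and the gene at the median, Clec4a3, differed by at least -1.97 with its Dox mean at the filter level. Of 12 CXC chemokine genes, 7 were higher with compound and 1, Cxcl9, with Dox. Cxcl9 was dim, with means of 2.92 with Dox, 2.50 with compound and 2.92 untreated. Of 15 CC chemokine genes, 7 were higher with compound and 2, Ccl5 and Ccl25, with Dox. Of 19 TNF receptor superfamily genes, 10 were higher with compound and 2, Tnfrsf19 and Tnfrsf11a, with Dox. Proteasome genes were higher with compound in 30 of 41 (median -0.49) and lower in 2. Of 43 genes of the large mitochondrial ribosome subunit, 29 were higher with compound and 3 with Dox (median -0.63).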
